A study of Mus musculus with 6 samples.

Results

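The genes of cholesterol synthesis and of its transcriptional control by the sterol regulatory element-binding proteins (SREBPs) were followed in bone marrow-derived macrophages (BMMs) treated with DASA-58. The set held 29 genes chosen by mouse symbol, and all 29 were found among the 23504 genes of the expression table. It comprised 7 genes of the SREBP regulators, 18 enzymes of the route from acetyl-CoA to cholesterol, 2 enzymes of the isoprenoid branch, the sterol carrier gene Stard4 and Mmab, the gene next to Mvk. Gene symbols were taken from the Ensembl identifiers in the table.

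RNA was sequenced from 6 libraries, 3 of BMMs given DASA-58 and 3 of BMMs given an equal volume of DMSO, the solvent. DASA-58 is a small molecule that activates the glycolytic enzyme pyruvate kinase M2 (PKM2) by favoring its tetramer. The cells came from the marrow of male C57BL/6 mice of 6 to 8 weeks, were grown with M-CSF, the growth factor that keeps macrophages alive, and were taken after 3 days. The study's results describe RANKL, the cytokine that drives macrophages to become osteoclasts, for both groups, while its methods name RANKL for the treated group alone and write DASA-48 for the compound, which the labels call DASA-58. The dose used for sequencing was not given in the sources used here, and nothing states whether the 3 replicates of a group came from separate cultures or animals. The p-values therefore measure the spread between these libraries, which may be technical.

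Depth was even, between 18191560 and 18968556 fragments per library, as recovered from the deposited values. The macrophage markers were abundant in both groups, with a summed level of 1576 to 1619 FPKM with DMSO and 1763 to 1785 FPKM with DASA-58 (3 of 6 rose, among them Adgre1, which encodes F4/80). FPKM is the number of fragments counted for a gene, scaled by its length and by the depth of the library. Comparisons between genes therefore depend on the length used, and those between libraries on the scaling. Osteoclast markers, Ctsk and Acp5 among them, were also present and were lower in every DASA-58 library for 10 of 10 genes, with a summed level of 778 to 833 FPKM with DMSO and 449 to 467 FPKM with DASA-58, and 9 of the 9 tested fell. Summed neutrophil markers went from 113 to 120 FPKM down to 92.8 to 97.2 FPKM, with Ly6g at 0 or 1 fragment in every library, whereas stromal markers lay between 31.7 and 34.2 FPKM in both groups. Most of the stromal sum was Col1a1 and Col1a2. The stromal markers Pdgfra, Cxcl12 and Lepr were low, with DMSO means of 0.0490, 0.320 and 0.0539 FPKM. T and NK cell markers summed to between 5.85 and 7.20 FPKM, most of it Cd4, with Nkg7 next at a mean of 0.764 FPKM in control and 0.706 FPKM in treated libraries, and with Cd3e at 3 fragments or fewer, and the measured markers of B cells (Ms4a1 at 0 to 1 fragment) and of mast cells and basophils (Ms4a2 at 0 to 1 fragment) did not exceed a sum of 0.423 FPKM. The part that these shifts in cell markers play in the values below was not tested. In such bulk RNA, fewer cells of a type and less RNA per cell cannot be told apart.

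Cells make cholesterol from acetyl-CoA through mevalonate, the isoprenyl diphosphates, squalene and lanosterol. SREBP2, encoded by Srebf2, is the transcription factor best known for driving these genes. It is made as a membrane protein of the endoplasmic reticulum and is bound to the escort protein SCAP. When sterols are plentiful, the INSIG proteins hold SCAP in place. When sterols run low, SCAP carries SREBP2 to the Golgi, where the site-1 and site-2 proteases, encoded by Mbtps1 and Mbtps2, free the part that enters the nucleus. The route is of practical importance in osteoclasts, because nitrogen-containing bisphosphonates act on farnesyl diphosphate synthase, the product of Fdps, and so deprive small GTPases of their lipid anchor.

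Active SREBP2 binds sterol regulatory elements close to the start of its target genes, usually together with the factor NF-Y, which binds the CCAAT box. Promoter windows of 300 bases from RefSeq (build GRCm38.p6, 250 bases before to 50 after each annotated start) were matched for 25 of the 29 genes, which have 33 such windows. Fdps, Fdft1, Sqle and Stard4 had no entry. Windows of 6 genes are printed to show the letters that the results below can be read against, each 5′ to 3′ along the strand of the gene. Capitals mark the sterol regulatory element in the form TCACNCCA and the CCAAT box, both searched on both strands, so that ATTGG is the same box on the other strand. Hmgcs1, Srebf2 and Msmo1 are shown because they were the 3 genes with the element, Insig1 and Cyp51 because they were among the genes that rose with DASA-58, and Mvk because its window overlaps that of Mmab.
Hmgcs1, chr13:119690101-119690400, plus strand: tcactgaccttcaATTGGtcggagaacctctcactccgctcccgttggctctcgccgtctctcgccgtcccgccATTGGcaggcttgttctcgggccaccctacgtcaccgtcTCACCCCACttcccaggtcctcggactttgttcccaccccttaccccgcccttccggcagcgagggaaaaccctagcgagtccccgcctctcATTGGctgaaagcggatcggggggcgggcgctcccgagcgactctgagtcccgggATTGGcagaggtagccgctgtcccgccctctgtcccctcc
Srebf2, chr15:82147019-82147318, plus strand: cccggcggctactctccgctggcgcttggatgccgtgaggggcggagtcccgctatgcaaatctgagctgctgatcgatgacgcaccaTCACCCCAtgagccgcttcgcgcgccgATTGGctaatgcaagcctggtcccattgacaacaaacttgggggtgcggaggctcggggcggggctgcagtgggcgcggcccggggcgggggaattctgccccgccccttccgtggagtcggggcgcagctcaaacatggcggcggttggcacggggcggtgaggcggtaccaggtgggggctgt
Msmo1, chr8:64733529-64733828, minus strand: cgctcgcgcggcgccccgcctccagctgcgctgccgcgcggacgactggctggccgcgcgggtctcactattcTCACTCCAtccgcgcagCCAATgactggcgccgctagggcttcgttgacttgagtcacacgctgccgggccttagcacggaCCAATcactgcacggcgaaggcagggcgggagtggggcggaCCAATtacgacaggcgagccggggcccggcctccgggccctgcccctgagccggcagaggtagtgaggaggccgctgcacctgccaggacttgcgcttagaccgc
Insig1, chr5:28071162-28071461, plus strand: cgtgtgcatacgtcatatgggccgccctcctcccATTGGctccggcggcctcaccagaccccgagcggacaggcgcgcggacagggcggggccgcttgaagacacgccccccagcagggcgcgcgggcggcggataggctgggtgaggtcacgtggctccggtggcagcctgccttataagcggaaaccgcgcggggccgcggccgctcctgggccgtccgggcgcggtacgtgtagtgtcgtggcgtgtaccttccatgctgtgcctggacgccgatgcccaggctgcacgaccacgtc
Cyp51, chr5:4104648-4104947, minus strand: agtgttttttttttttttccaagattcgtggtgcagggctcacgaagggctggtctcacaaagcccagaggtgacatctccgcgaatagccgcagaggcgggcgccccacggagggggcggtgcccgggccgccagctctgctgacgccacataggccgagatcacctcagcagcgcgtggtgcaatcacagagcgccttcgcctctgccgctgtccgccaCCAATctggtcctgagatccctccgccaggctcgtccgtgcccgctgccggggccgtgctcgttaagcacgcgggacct
Mvk, chr5:114444019-114444318, plus strand: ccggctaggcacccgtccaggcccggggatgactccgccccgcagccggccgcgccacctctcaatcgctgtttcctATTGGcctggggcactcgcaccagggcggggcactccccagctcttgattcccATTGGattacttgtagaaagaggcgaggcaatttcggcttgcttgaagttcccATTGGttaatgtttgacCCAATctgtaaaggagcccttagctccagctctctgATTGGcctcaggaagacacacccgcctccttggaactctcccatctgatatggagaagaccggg

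In these windows the element TCACNCCA began 137 bases before the start of Hmgcs1, 162 before that of Srebf2 and 177 before that of Msmo1. It was present in 3 of the 25 genes (12%), against 4.97% of all genes with a RefSeq window. The longer form TCACNCCAC, which contains the shorter, was found in Hmgcs1 alone (4.0%, against 1.44% of all genes). A CCAAT box stood in 22 of the 33 windows (66.7%, against 37.4% of all 32851 windows) and the GC box GGGCGG in 26 (78.8%, against 35.7%). The E-box CACGTG, which reads the same on both strands and to which SREBPs can also bind, was in 7 windows (21.2%, against 7.15%). Some windows overlap, as those of Mvk and Mmab (259 shared bases) and those of Scap, so boxes can be counted in more than 1 window. By gene, the CCAAT box was in 21 of the 25 (84.0%, against 41.1% of all genes with a RefSeq window). The GC box was in 22 (88.0%, against 38.2%) and the E-box in 6 (24.0%, against 8.09%). These backgrounds take in all 27025 genes with a window, whether or not they were expressed in these cells. A background of expressed genes alone was not counted. Among the 11 genes with a window that rose with DASA-58, 10 had a CCAAT box and 3 the element TCACNCCA, and among the other 14 genes the numbers were 11 and 0. Mbtps1, Mbtps2, Scap and Acat2 had no CCAAT box in any window. A match of letters is a description of the window and does not show that a factor binds there.

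Of the 29 genes, 28 had a mean of at least 1 FPKM and were tested, each with between 129 and 3376 fragments per library, and Fdps was below this level. With DASA-58, 14 of the 28 rose (50.0%) at an adjusted p under 0.05, and none fell. Over all 10965 genes tested, 4.24% rose and 7.28% fell by the same test, limma on log2(FPKM + 1) with Benjamini-Hochberg adjustment. At an unadjusted p under 0.05, 19 of the genes were higher and 2, Srebf1 and Mbtps1, were lower. The share of all genes tested that passed at this unadjusted level was not counted, so these counts have no background beside them. The changes were of moderate size, the genes that rose reaching 120% to 154% of their DMSO mean. The median log2 fold change of the 28 genes was 0.24, against -0.03 over all genes tested, and 24 of the 28 values were above 0. Under the other scalings of the libraries that were tried, the number that rose was between 14 and 17, while the share of lower genes among all calls moved from 63.2% to 49.5% with quantile normalization, 45.8% when libraries were centred on their median, 45.5% after scaling by trimmed mean (TMM) and 71.3% with equal library totals.

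**Figure D1:**
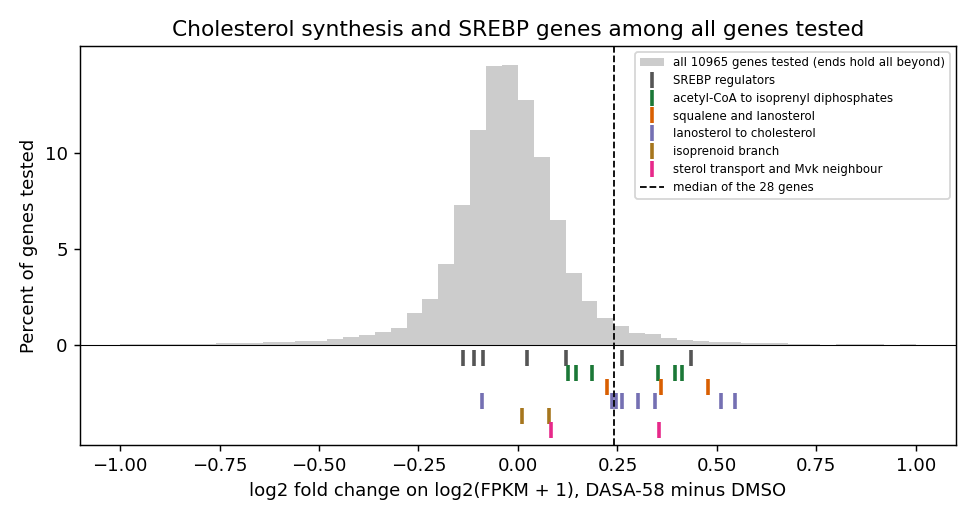
The histogram shows the percent of all 10965 genes tested at each log2 fold change on the log2(FPKM + 1) scale, DASA-58 minus DMSO, and the coloured ticks below it show the 28 tested genes by step of the route. The dashed line is their median of 0.24, and the ticks of the squalene and lanosterol step all lie above 0, as do those of the sterol steps apart from Ebp.

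The groups of 3 libraries did not overlap for most of these genes. Every DASA-58 library was above every DMSO library for 18 of the 28 (64.3%, against 11.8% of all genes tested), and below for 2, Srebf1 and Mbtps1 (7.14%, against 21.6%), leaving 8 that overlapped. Such a separation has an exact permutation p of 0.10, which is the smallest that 3 libraries against 3 can give. No library stood apart throughout. DMSO replicate 1 was the highest of its group for 13 of the 29 genes and DASA-58 replicate 3 for 12. DMSO replicate 2 was the lowest of its group for 15 of the 29 and DASA-58 replicate 1 for 12. Of the 14 genes that rose, 9 (Srebf2, Insig1, Acat2, Idi1, Sqle, Cyp51, Tm7sf2, Msmo1 and Stard4) remained called whichever library was left out. Without DASA-58 replicate 2 the number that rose was 9, since Hmgcs1, Fdft1, Nsdhl, Sc5d and Dhcr7 then lay between an adjusted p of 0.050 and 0.077.

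**Figure D2:**
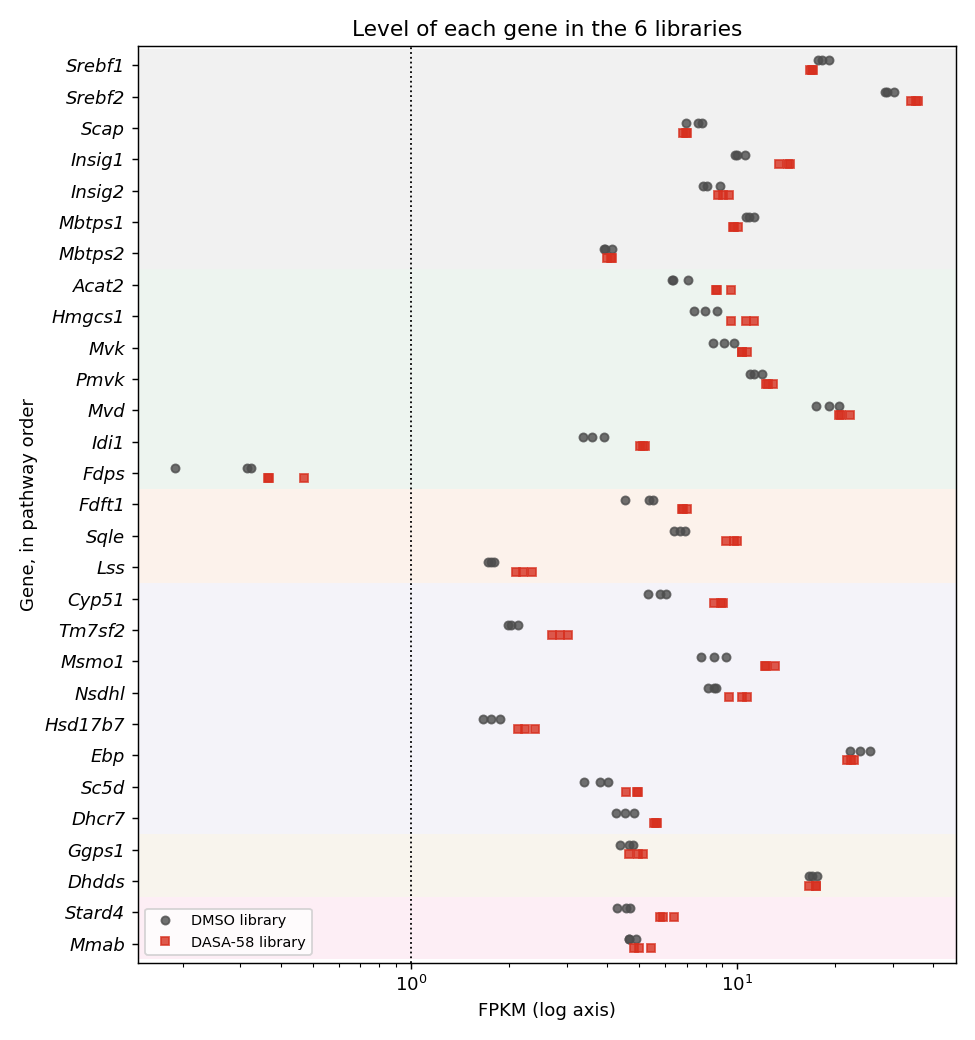
Each row is a gene in pathway order, with its level in FPKM on a log axis for the 3 DMSO libraries (circles) and the 3 DASA-58 libraries (squares), shaded by step. The dotted line marks 1 FPKM, the mean below which a gene was not tested. Srebf2 has the highest values, at 28.4 to 35.9 FPKM, and Fdps lies below the line in all 6 libraries.

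Levels differed over a wide range. In DMSO cells Srebf2 had the highest mean, 29.1 ± 0.980 FPKM (SD, n = 3), followed by Ebp at 23.8 ± 1.72 FPKM. Mvd at 19.1 ± 1.55 FPKM and Srebf1 at 18.4 ± 0.734 FPKM came next, with libraries that overlapped each other. At the low end, Tm7sf2, Hsd17b7 and Lss had means of 2.05, 1.76 and 1.76 FPKM, and the libraries of Hsd17b7 and Lss overlapped. Between these ends the order was loose, as from Mvk (9.10 FPKM) down to Scap (7.45 FPKM) each gene overlapped the next. Summed over the 18 enzymes of the route, the level was 133, 130 and 127 FPKM in the DMSO libraries and 154, 159 and 159 FPKM in the DASA-58 libraries, a mean of 130 ± 3.33 against 157 ± 3.23 FPKM. The sum was higher in all 3 treated libraries than in any control library.

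Among the 7 regulators, 2 rose (against 4.24% of all genes tested), Srebf2 and Insig1, and the other 5 were not called. The lists by step are small, and no test was run over them. Srebf2, encoding SREBP2 itself (ENSMUSG00000022463, chr15:82147181-82205379, plus strand, GRCm38), was at 30.2, 28.4 and 28.8 FPKM with DMSO and at 35.9, 35.2 and 34.1 FPKM with DASA-58. All 3 treated libraries lay above the controls, and the log2 fold change on log2(FPKM + 1) was 0.26 (SE 0.036, adjusted p = 0.0044), a mean of 120% of DMSO. Srebf1, whose products SREBP1a and SREBP1c serve fatty acid synthesis more than cholesterol synthesis, was at 18.2, 19.2 and 17.8 FPKM with DMSO and at 16.8, 17.1 and 16.9 FPKM with DASA-58. The treated libraries of Srebf1 lay below the controls without passing the test (log2 fold change -0.11, 95% interval -0.20 to -0.02, adjusted p = 0.10).

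Insig1 (ENSMUSG00000045294, chr5:28071363-28078662, plus strand, GRCm38), which encodes an anchor of SCAP and is itself a target of SREBP2, was at 10.6, 10.0 and 9.87 FPKM with DMSO and at 13.4, 14.3 and 14.5 FPKM with DASA-58. The groups were well separated, at 139% of DMSO with a log2 fold change of 0.44 (SE 0.044, adjusted p = 0.0012). Insig2, which encodes the second anchor and is known to respond less to SREBP2, had 8.87, 7.85 and 8.10 FPKM with DMSO and 9.04, 8.74 and 9.43 FPKM with DASA-58. Its groups overlapped, since DASA-58 replicate 2 lay below DMSO replicate 1, and its log2 fold change was 0.12 (95% interval -0.0022 to 0.24, adjusted p = 0.19).

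**Figure D3:**
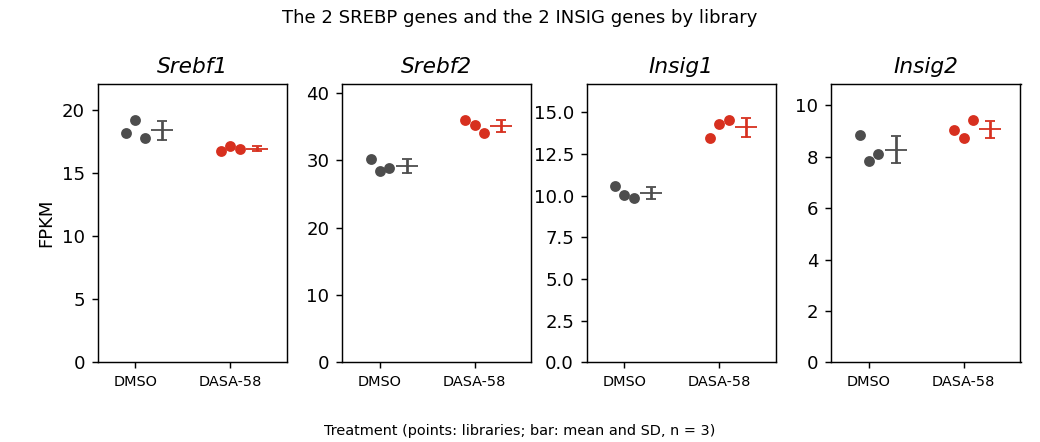
Each panel plots the FPKM of one gene from 0 upward, with a point for each library and a bar for the mean and SD of 3 libraries, DMSO in grey and DASA-58 in red. Srebf2 and Insig1 are separated upward between the groups (120% and 139% of DMSO), Srebf1 is slightly lower (92.2%), and Insig2 overlaps (110%).

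Ratios between partner genes within a library do not depend on how libraries are scaled, and 3 of them were compared. The log2 ratio of Insig1 to Insig2 FPKM was 0.25, 0.35 and 0.29 in the DMSO libraries and 0.57, 0.71 and 0.62 in the DASA-58 libraries, a difference of 0.34 (exact permutation p = 0.10, two-sided, 0.15 after adjustment over the 3 ratios). That of Srebf2 to Srebf1 was 0.73, 0.56 and 0.70 with DMSO and 1.10, 1.04 and 1.01 with DASA-58, a difference of 0.39 (exact permutation p = 0.10, adjusted 0.15). Both ratios were higher in each treated library than in any control, and this p is the smallest the design allows.

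Scap, encoding the sterol sensor that escorts SREBP2, was at 7.80, 7.58 and 6.97 FPKM with DMSO and 6.84, 6.98 and 7.02 FPKM with DASA-58. The groups overlapped (log2 fold change -0.09, adjusted p = 0.29), and 18.9% of its transcript matched 5830462I19Rik on the opposite strand. Mbtps1, encoding the site-1 protease that makes the first cut, was at 10.9, 10.7 and 11.3 FPKM with DMSO and at 9.78, 9.70 and 10.0 FPKM with DASA-58, 90.0% of the control mean. All its treated libraries were below the controls, and the log2 fold change of -0.14 (95% interval -0.23 to -0.05) missed the threshold at an adjusted p of 0.055, while it passed at 0.049 with equal library totals, at 0.048 when genes of at least 5 FPKM were tested and at 0.0078 with limma's voom weights on the recovered fragments. Mbtps2, encoding the site-2 protease, stayed between 3.92 and 4.15 FPKM in all 6 libraries (log2 fold change 0.02, 95% interval -0.087 to 0.13, adjusted p = 0.79), and it shares 28.4% of its exon bases with Yy2 on the same strand.

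**Figure D4:**
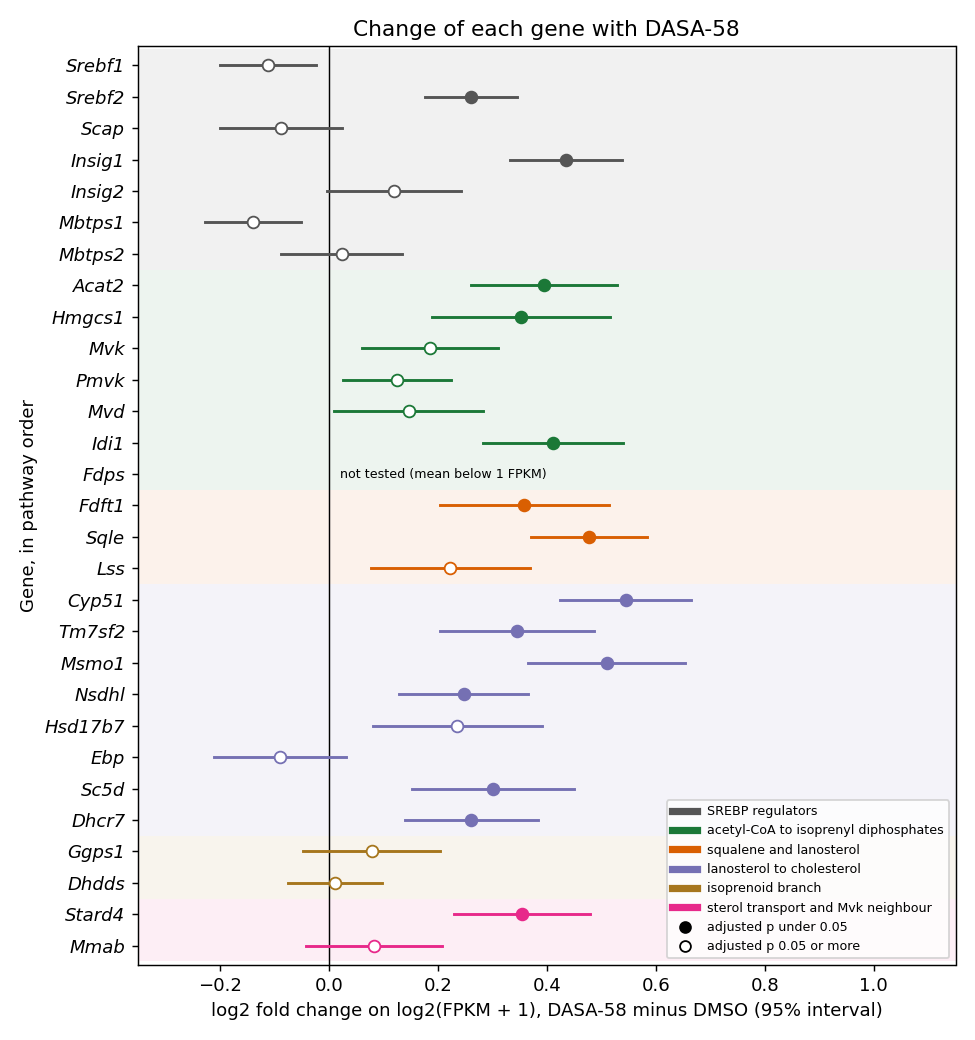
Points are log2 fold changes on the log2(FPKM + 1) scale, DASA-58 minus DMSO, with 95% intervals from limma, for the genes in pathway order and coloured by step. Filled points passed an adjusted p of 0.05 (14 genes), and open points did not. The highest is Cyp51 at 0.55 and the lowest Mbtps1 at -0.14.

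From acetyl-CoA to the isoprenyl diphosphates, 3 of 6 tested enzymes rose, Acat2, Hmgcs1 and Idi1, against 4.24% of all genes tested. All 6 had positive log2 fold changes (median 0.27). Summed over the 7 enzymes, Fdps included, the level was 56.8 to 60.3 FPKM with DMSO and 67.4 to 70.2 FPKM with DASA-58. Acat2, the cytosolic thiolase that joins acetyl-CoA units, was at 7.07, 6.36 and 6.32 FPKM with DMSO and 8.71, 9.59 and 8.62 FPKM with DASA-58. The treated libraries were all higher, at 136% of DMSO (log2 fold change 0.40, SE 0.058, adjusted p = 0.0054). Of its transcript, 65.6% matched Acat3 or Tcp1 at 95% identity or more. Acat3 was nearly silent, with means of 0.0771 and 0.0986 FPKM, and Tcp1 averaged 53.7 FPKM in control and 51.8 FPKM in treated libraries.

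Hmgcs1, the synthase that adds the next acetyl unit to form HMG-CoA, was at 8.68, 7.39 and 7.97 FPKM with DMSO and 9.61, 11.3 and 10.6 FPKM with DASA-58. Its groups did not overlap, but they were wide, and the call was less firm than that of Acat2 (131% of DMSO, log2 fold change 0.35, SE 0.070, adjusted p = 0.019). Leaving out DMSO replicate 2 or 3 or DASA-58 replicate 2 or 3 brought the adjusted p to between 0.051 and 0.064. This is the gene whose promoter, printed above, holds the full element TCACNCCAC and 4 CCAAT boxes, and 12.1% of its exon bases are shared with Gm48342 on the opposite strand. Idi1, the isomerase that makes dimethylallyl diphosphate, rose more evenly, from 3.59, 3.37 and 3.90 FPKM to 5.05, 5.22 and 5.16 FPKM. It reached 142% of DMSO with a log2 fold change of 0.41 (SE 0.056, adjusted p = 0.0039), and 33.3% of its transcript matched Gm13502, Gm35570 or Gm48574.

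The 3 enzymes that act between these steps, the kinases and the decarboxylase of mevalonate, were higher on average with DASA-58 but did not pass the test. Mvk, mevalonate kinase, had 9.11, 8.41 and 9.79 FPKM with DMSO and 10.7, 10.4 and 10.3 FPKM with DASA-58. Its treated libraries were all above the controls (115%, log2 fold change 0.19, adjusted p = 0.067), and the adjusted p was 0.034 without DMSO replicate 3 and 0.040 to 0.046 with quantile normalization, median centring, TMM, voom weights or genes of at least 5 FPKM. Pmvk, phosphomevalonate kinase, went from 10.9, 11.9 and 11.3 FPKM to 12.4, 12.2 and 12.9 FPKM, also without overlap (110%, log2 fold change 0.13, adjusted p = 0.10). Mvd, the decarboxylase, was at 20.6, 19.1 and 17.5 FPKM with DMSO and 20.6, 20.8 and 22.1 FPKM with DASA-58. One DMSO library of Mvd reached into the treated range, and the log2 fold change was 0.15 (adjusted p = 0.15).

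Fdps, the target of the bisphosphonates, had the lowest values of the 29 genes and was not tested. It stood at 0.324, 0.189 and 0.313 FPKM with DMSO and 0.366, 0.470 and 0.363 FPKM with DASA-58, which correspond to between 15 and 25 fragments and between 29 and 36 fragments per library. All treated libraries were above the controls (exact permutation p = 0.10). Its level is uncertain, because 91.4% of its transcript matched 6 other genes, processed pseudogenes and Gm43738, at 95% identity or more, and how fragments that fit several genes were counted was not given in the sources used here.

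At squalene and lanosterol, the first steps committed to sterols, 2 of 3 enzymes rose, against 4.24% of all genes tested. The third had no overlap between groups. Sqle (ENSMUSG00000022351, chr15:59315077-59331192, plus strand, GRCm38), squalene epoxidase and a rate-limiting enzyme of the late route, was at 6.41, 6.69 and 6.90 FPKM with DMSO and at 9.25, 9.78 and 9.98 FPKM with DASA-58. This was among the clearest changes of the set, at 145% of DMSO (log2 fold change 0.48, SE 0.046, adjusted p = 8.9e-04), and no other gene matched its transcript. Fdft1, squalene synthase, was at 5.38, 5.53 and 4.53 FPKM with DMSO and 6.76, 7.02 and 6.81 FPKM with DASA-58, or 133% (log2 fold change 0.36, SE 0.067, adjusted p = 0.014).

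The value of Fdft1 carries a further limit. Its exons share 774 bases (18.3%) with those of Ctsb on the opposite strand, and the use of strand in the counting was not given in the sources used here. Ctsb, the lysosomal protease cathepsin B, was far more abundant, at 936 ± 18.8 FPKM with DMSO, and rose as well, to 1141 ± 16.9 FPKM (log2 fold change 0.29, adjusted p = 6.3e-04), so that reads of both genes cannot be told apart over the shared bases without strand. In all, 54.7% of the Fdft1 transcript matched Ctsb or the processed pseudogene Gm6781 at 95% identity or more. Lss, lanosterol synthase, which closes the sterol rings, had 1.79, 1.72 and 1.76 FPKM with DMSO and 2.21, 2.105 and 2.35 FPKM with DASA-58. The groups of Lss were separate at 126% of DMSO, with a log2 fold change of 0.22 and an adjusted p of 0.060. It passed with quantile normalization, median centring, TMM, no variance trend or voom weights.

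From lanosterol to cholesterol, 6 of 8 enzymes rose, against 4.24% of all genes tested. They were Cyp51, Tm7sf2, Msmo1, Nsdhl, Sc5d and Dhcr7. The summed level of all 8 went from between 56.5 and 59.6 FPKM to between 68.0 and 70.3 FPKM. Cyp51 (ENSMUSG00000001467, chr5:4081145-4104746, minus strand, GRCm38), the demethylase that removes the first methyl group of lanosterol, was at 5.79, 6.07 and 5.35 FPKM with DMSO and at 9.02, 8.94 and 8.50 FPKM with DASA-58. It had the highest fold change of the 28 tested genes, 154% of DMSO with a log2 fold change of 0.55 (SE 0.052, adjusted p = 8.5e-04). Msmo1 (ENSMUSG00000031604, chr8:64718139-64733792, minus strand, GRCm38), the methyl sterol oxidase that starts removal of the next methyl groups, followed, with 9.27, 7.73 and 8.51 FPKM with DMSO and 12.3, 13.0 and 12.2 FPKM with DASA-58. Its treated libraries were all higher, at 147% of DMSO (log2 fold change 0.51, SE 0.062, adjusted p = 0.0025).

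Nsdhl, Hsd17b7 and Tm7sf2 also act on the sterol between lanosterol and the last enzymes. Nsdhl, the dehydrogenase of the same demethylation, went from 8.48, 8.12 and 8.62 FPKM to 9.48, 10.4 and 10.7 FPKM, or 121% (log2 fold change 0.25, adjusted p = 0.021). Hsd17b7, the ketoreductase that completes the demethylation, was at 1.87, 1.76 and 1.67 FPKM with DMSO and 2.13, 2.23 and 2.41 FPKM with DASA-58. Its groups did not overlap, and it missed the threshold at an adjusted p of 0.061 (128%, log2 fold change 0.24). It passed with quantile normalization (0.048), median centring (0.048), no variance trend (0.033) and voom weights (0.021). Tm7sf2, a sterol reductase, rose from 2.13, 1.98 and 2.03 FPKM to 3.03, 2.87 and 2.71 FPKM, or 140% (adjusted p = 0.012). Of its exon bases 12.1% are shared with Vps51 on the same strand, whose mean was 12.2 FPKM in control and 11.2 FPKM in treated libraries, a difference of the opposite sign.

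Of the last enzymes of the route, Sc5d and Dhcr7 rose and Ebp was not called. Ebp, the isomerase that moves the double bond in the sterol ring, was abundant, at 23.8, 25.6 and 22.1 FPKM with DMSO and 21.8, 22.3 and 22.8 FPKM with DASA-58. It was the single enzyme of the route with a negative log2 fold change (-0.09, 95% interval -0.21 to 0.031, adjusted p = 0.31), and its groups overlapped. Sc5d, the desaturase, went from 3.79, 3.39 and 4.02 FPKM to 4.56, 4.98 and 4.93 FPKM, or 129% (log2 fold change 0.30, adjusted p = 0.023). Dhcr7, the reductase that turns 7-dehydrocholesterol into cholesterol, went from 4.52, 4.84 and 4.24 FPKM to 5.70, 5.55 and 5.64 FPKM, or 124% (log2 fold change 0.26, adjusted p = 0.019). Both were separate in all libraries. The calls of Nsdhl and Sc5d were lost without DMSO replicate 1 or 2 or DASA-58 replicate 2 or 3, and that of Dhcr7 without DMSO replicate 1 or any DASA-58 library, with adjusted p-values of 0.052 to 0.080.

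The isoprenoid branch, which leads away from cholesterol, showed no called change by limma, and neither of its 2 genes had an unadjusted p under 0.05. Ggps1, which makes geranylgeranyl diphosphate for the anchoring of small GTPases, was at 4.66, 4.36 and 4.80 FPKM with DMSO and 4.96, 4.67 and 5.15 FPKM with DASA-58 (log2 fold change 0.08, 95% interval -0.046 to 0.20, adjusted p = 0.39), and 27.3% of its transcript matched Arid4b or the pseudogene Gm5630. Dhdds, a subunit of the enzyme that builds dolichol chains, stayed between 16.6 and 17.6 FPKM in all 6 libraries (log2 fold change 0.01, 95% interval -0.075 to 0.097, adjusted p = 0.88). The groups of both genes overlapped, and these intervals lie below the log2 fold changes of Cyp51, Msmo1 and Sqle, although the difference between genes was not tested.

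Stard4, which encodes a carrier of cholesterol in the cytosol and is a known SREBP2 target, rose from 4.70, 4.28 and 4.57 FPKM to 5.93, 6.42 and 5.81 FPKM. Its treated libraries were all higher, at 134% of DMSO (log2 fold change 0.35, SE 0.054, adjusted p = 0.0065). Mmab encodes an enzyme of vitamin B12 metabolism and lies head to head with Mvk on chromosome 5, their RefSeq starts 242 bases apart, so that the window printed for Mvk, with its 5 CCAAT boxes, shares 259 bases with that of Mmab. It was at 4.68, 4.65 and 4.89 FPKM with DMSO and 5.46, 4.82 and 4.98 FPKM with DASA-58, with overlapping groups (107%, log2 fold change 0.08, adjusted p = 0.37). The log2 ratio of Mvk to Mmab was 0.94 ± 0.08 with DMSO and 1.04 ± 0.07 with DASA-58 (SD, n = 3, exact permutation p = 0.20), so that a difference between these neighbours was not resolved.

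A further 40 genes of sterol handling were counted, of which 36 were tested, 3 rose (against 4.24% of all genes tested) and 1 fell (against 7.28%), and their median log2 fold change was 0.03. These counts are too small to set the list apart from other genes. Lipa, the lysosomal acid lipase that frees cholesterol from its esters, was at 513, 507 and 534 FPKM with DMSO and at 646, 653 and 645 FPKM with DASA-58 (log2 fold change 0.32, adjusted p = 4.7e-04). Soat1, which turns cholesterol back into esters, went from 25.1, 24.0 and 26.3 FPKM to 28.98, 29.03 and 29.30 FPKM (log2 fold change 0.21, adjusted p = 0.013). Cyp27a1, which makes 27-hydroxycholesterol, went from 13.6, 14.7 and 14.6 FPKM to 17.3, 15.7 and 16.4 FPKM (log2 fold change 0.19, adjusted p = 0.036). All 3 were separate between the groups.

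Of the 8 tested genes for the sterol-regulated degradation of the route's proteins, 1 fell, where 7.28% did over all genes, and a list of this size cannot be set apart from other genes by such a count. Rnf145, a ubiquitin ligase of the endoplasmic reticulum that binds INSIG proteins, was at 8.36, 9.39 and 8.60 FPKM with DMSO and at 7.88, 6.99 and 7.35 FPKM with DASA-58 (log2 fold change -0.22, adjusted p = 0.048), a call that was lost when any library was left out. By limma, none of the 13 tested genes that use isoprenyl diphosphates was called (1 higher and 1 lower at an unadjusted p under 0.05), with Coq2 of coenzyme Q synthesis nearest (11.4 against 13.2 FPKM, adjusted p = 0.069). None of the 4 tested genes that supply acetyl-CoA or electrons was called either (1 higher at an unadjusted p under 0.05). Acly, the source of cytosolic acetyl-CoA, stayed between 36.7 and 39.1 FPKM, and Por, which passes electrons to Cyp51 and Sqle, had means of 65.7 and 70.9 FPKM (adjusted p = 0.093).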

How the data were processed

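The authors deposited 1 table of FPKM values for 23504 genes and 6 libraries. The submitters' processing notes name HISAT2 2.1.0, HTSeq 0.6.0 and build mm8. The annotation and the use of strand are not given in the sources used here. With the exon lengths of GENCODE mouse release 21 (GRCm38), 90.9% of genes gave whole fragments in all libraries (within 0.02), from which depth and fragments were recovered, a fitted length made 1483 more whole, Srebf2 and Tm7sf2 among them, and where 0 fragments are seen, up to 3 remain possible by counting error alone. Gene positions are those of GRCm38. Symbols matched 23455 identifiers and 49 had none, and 0 value columns were left unused.

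Groups came from the sample labels. Differences were fitted by limma 3.58.1 (R 4.3.3) to log2(FPKM + 1), keeping the 10965 genes whose mean reached 1 FPKM, with a variance trend, no replicate block and Benjamini-Hochberg adjustment over these genes. Log2 fold changes on this scale understate the change of low genes, and percentages are ratios of mean FPKM. Permutation tests used SciPy 1.17.1, and shared sequence was searched with BLAST 2.17.0 (at least 100 bases at 95% identity). The fit was also run on data simulated with independent noise from the means and spread of these libraries. Such a run cannot speak to technical replication, shared sequence or scaling, and no result here rests on it. The genes and lists were chosen with earlier results of these data known, and all 29 genes are named. Of the other lists, called genes and the uncalled genes of smallest p are named, Acly was added after its values were seen, and genes that share over 10% of a gene's exon bases or transcript are given beside it. Erythroid markers were not analysed here.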

Additional observations from a re-analysis of the deposited data

How the results depend on the processing

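The alternatives were other pseudocounts (0.1 and 5), filters, scalings and variance models, the replicate block, each library left out and, added after seeing the data, voom weights on recovered fragments. The number of the 28 genes that rose, 14, became 8 without the filter on low values and 8 without variance shrinkage, and 9 to 14 with a library left out. Hmgcs1, Fdft1, Nsdhl, Sc5d and Dhcr7 were lost both without the filter and without shrinkage, Tm7sf2 in the first only and Acat2 in the second only. None fell, but Mbtps1 made the number 1 with a mean of at least 5 FPKM, with equal library totals and with voom. Over all genes, the 465 that rose became 257 without the filter, 227 without shrinkage, 743 with voom and 273 to 373 with a library left out. The 798 that fell became 372, 314 and 1325 in the same order, 504 after median centring, 499 with TMM scaling (trimmed mean of log ratios), 515 without a variance trend, and 385 to 604 with a library left out. Of the other 36 sterol genes, 3 rose, which became 1 without shrinkage, 5 with voom and 1 to 3 with a library left out. The 1 that fell became 0 without the filter, with quantile normalization, centring, TMM, no trend, no shrinkage, the replicate block and with each library left out (0 to 0), and 2 with at least 5 FPKM, equal totals and voom. Where these numbers moved, the cause was not tested. The sign of Dhdds, which was never called, turned with equal library totals (-0.0052), without DMSO replicate 1 (-0.0060) and without DASA-58 replicate 2 (-0.000745), over a range of -0.0060 to 0.0323 with a library left out. The other 27 genes kept their sign throughout.

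Same-numbered libraries did not deviate together (correlations -0.015, 0.016 and -0.016), while differently numbered ones ran from -0.046 to 0.061. Such values give no sign of pairing by number. From 3 libraries a group they cannot decide whether the replicates were paired. With the replicate block, 13 of the 28 genes rose, without Hmgcs1 (adjusted p = 0.055), and 378 genes rose and 579 fell over all. With 3 libraries a group and changes mostly under 50%, genes near the threshold such as Mvk, Lss and Hsd17b7 could not be settled, and the low fragments of Fdps allow no firm value.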
